A study of Mus musculus with 12 samples.

Results

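The probes described here are those whose names begin with mouselincRNA, followed by a number and a plus or minus sign. On this mouse array 649 of 60915 non-control probes carry such a name, 322 with a plus and 327 with a minus. They cover 332 different lincRNA numbers between 2 and 1671. Of these numbers, 317 have a probe of each sign, 5 a plus probe alone and 10 a minus probe alone. Probes of 1 number share a name and possibly a locus, so they are not independent of each other. The sign is read here as the strand of the putative transcript, and the files do not define it. A member is written below by its number and sign, as lincRNA0696+.

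Long intergenic noncoding RNAs (lincRNAs) are long transcripts without a recognised open reading frame that are made from DNA between protein-coding genes. Early mouse catalogues of them were drawn from stretches of chromatin that carry the marks of an active promoter and of transcription, and such marks do not tell the strand, so a design may place a probe on each strand. In brain, many lincRNAs are known to be made in a restricted set of cell types or regions and at lower levels than messenger RNAs. Neither the function of the transcripts behind these members nor the catalogue from which the names came is stated in the labels or files.

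Male BALB/c mice, 10 weeks old and without treatment, gave 4 brain regions for the comparison. These were the olfactory bulb, first relay of smell, the hypothalamus, which controls hormone release and hunger, the hippocampus, needed to form memories, and the cerebellum, which tunes movement. Each region was dissected as a whole and so mixes many neuronal and glial cell types. Total RNA was depleted of ribosomal RNA, labelled with Cy3 by random priming and hybridised to an Arraystar lncRNA and mRNA array, with 3 scans per region. The series text speaks of 3 mice, but the labels do not tie arrays to animals, so the p-values reflect array-to-array spread, which may be technical. None of the region markers listed for this work has a probe named for it in the files, so the dissections were not checked by marker genes. In tissue samples such as these, fewer cells of a type and less RNA per cell cannot be told apart.

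Both the hippocampus and the cerebellum counted as 2 arrays. Their scans 1 and 3 differed with an SD of 0.0277 and 0.0262 on the log2 scale over 14991 bright probes. Both were below 0.0308, taken from the SD among copies of a probe on 1 scan. That value is the median over probes with at least 10 copies, on the scan where this median was smallest. The other pairs of scans of a region differed with an SD of 0.314 to 0.51. Over the 40 brightest members the near-identical scans differed by 0.0246 and 0.0237, and the other pairs by 0.284 to 0.916. The near-identical scans were averaged, which left 10 arrays: olfactory bulb and hypothalamus with 3 each, hippocampus and cerebellum with 2 each. Array 1 of every region was scanned at one time and array 2 at another, per the file headers. Scan 3 of the hippocampus and of the cerebellum, averaged into their array 1, was made at a further time. Below, scan time stands for the array number. A region always had the same place on its slide, so place and region cannot be told apart.

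The members gave weaker signals and passed the detection mark less often than the array as a whole. The scanner software marks a spot as well above background when its signal clears the local background by a set margin. Between 441 and 516 members passed on a scan, or 67.95% to 79.5%, whereas 87.87% to 93.17% of all probes did. On all 12 scans 395 members passed (60.9%, against 84.3% of all probes), and on none 79 members (12.2%, against 4.17%). The remaining 175 members passed on some scans only. Detection is a mark on signal, and how well each probe binds its target is not stated in the files.

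Detection of the members on every scan was highest in the cerebellum and lowest in the hippocampus. On every scan of the region, 484 members passed in the cerebellum (74.6%), 452 in the hypothalamus (69.6%), 438 in the olfactory bulb (67.5%) and 419 in the hippocampus (64.6%). All probes together had the same order, from 90.8% in the cerebellum to 86.9% in the hippocampus. When passing on at least 1 scan was enough, the olfactory bulb led instead with 82.6%, and the cerebellum had 82.0%, the hypothalamus 80.6% and the hippocampus 78.4%. The order of the regions therefore depended on the limit. Neither limit is equal between regions, since scans 1 and 3 of the hippocampus and of the cerebellum were near-identical. Passing on every scan is easier, and on at least 1 scan harder, with fewer distinct arrays. Shares of single scans overlapped between regions, except that the hippocampus reached 74.9% at most and the cerebellum 77.3% at least. The lowest level that passed, on the log2 scale defined below, also differed between regions. It was -5.80 to -5.66 on hippocampus scans, -6.05 to -5.95 on hypothalamus, -6.31 to -6.03 on cerebellum and -6.32 to -6.07 on olfactory bulb scans. A dim member could thus pass elsewhere at a level that would not pass in the hippocampus.

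Plus and minus probes passed in similar shares. On all 12 scans 60.6% of the plus probes and 61.2% of the minus probes passed. In the olfactory bulb 67.1% of plus and 67.9% of minus probes passed on every scan. The hypothalamus had 70.5% and 68.8%, the hippocampus 64.9% and 64.2%, and the cerebellum 74.8% and 74.3%.

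**Figure D1:**
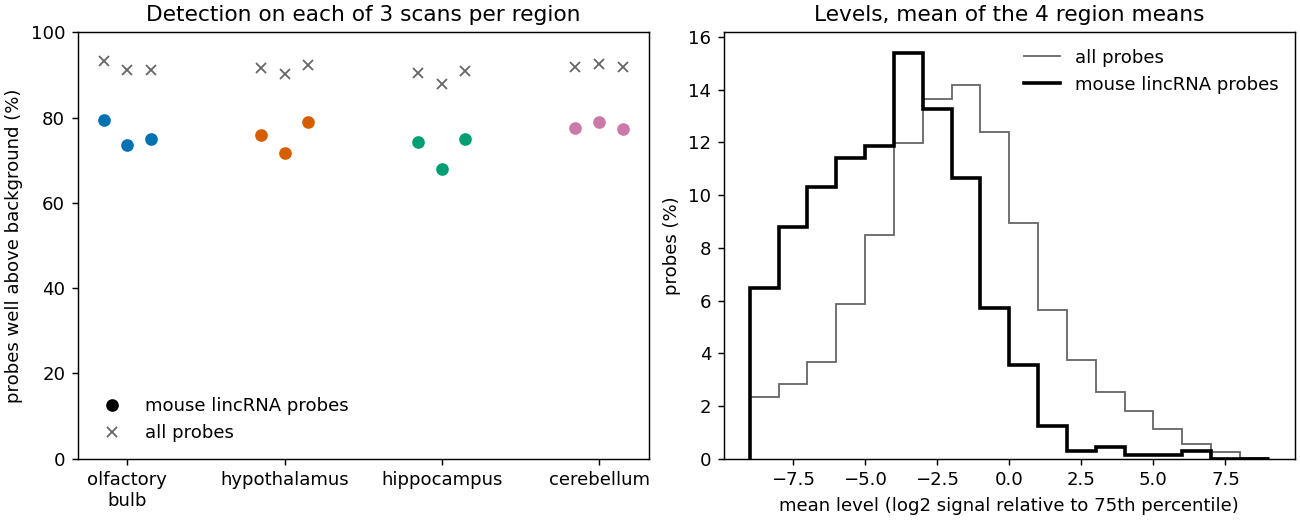
Left, the percentage of probes well above background on each of 12 scans, 3 per region, for the mouse lincRNA probes (filled circles) and all non-control probes (crosses); the 2 series do not overlap. Right, the distribution of the mean level over the 4 regions (log2 signal less the scan's 75th percentile) in steps of 1, as a percentage of the 649 members (thick line) and of all probes (thin line); the members' median is -3.87 and that of all probes -1.91.

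Levels are log2 processed signals from which the scan's 75th percentile was subtracted, so 0 stands for that percentile. The members had a median level of -3.87, with quartiles of -6.07 and -2.19, and all probes a median of -1.91, with quartiles of -3.82 and -0.03. The brightest member reached 6.97 and the dimmest -8.36. Of the 649 members, 40 lay above 0 and 139 (21.4%) above the median of all probes. Plus probes had a median of -3.90 and minus probes of -3.83.

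Over the members the median was -4.06 in the olfactory bulb, -3.88 in the hypothalamus, -3.92 in the hippocampus and -3.86 in the cerebellum. Single arrays ranged from -4.17 to -3.88 in the olfactory bulb, from -4.03 to -3.79 in the hypothalamus, from -4.05 to -3.80 in the hippocampus and from -3.90 to -3.79 in the cerebellum. The arrays of the regions overlapped, and array 2 was the lowest in each region. Within each array number the olfactory bulb was the lowest region, at -3.88 on array 1, -4.17 on array 2 and -3.97 on array 3. By sign, this order held on each array number for the minus probes only. Among plus probes the hypothalamus was lower on array 1 (-3.892, against -3.885) and the hippocampus on array 2 (-4.193, against -4.177). Only the olfactory bulb and the hypothalamus have an array 3. The difference was not tested.

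Differences between regions were tested for the 504 members that passed the detection mark on all scans of at least 1 region, 250 plus and 254 minus. The other 145 members, of which 79 passed on no scan and 66 on scattered scans, were not tested. In limma's F test over the regions, 42 of the 504 (8.33%) passed an adjusted p of 0.05, against a background of 36.1% of all probes tested. Both signs had 21 such members (8.40% of plus, 8.27% of minus probes). At an unadjusted p under 0.05 there were 62 members (12.3%, against 43.3% of all probes). Leaving out 1 array at a time, 24 of the 42 kept the call each time and 18 lost it at least once. With scan time as a block the count was 103 members (20.4%, against 54.0%), and 40 of the 42 were among them. The exceptions were lincRNA0065- and lincRNA0491-, the latter named after its values were seen. The share called was also low among probes with human lincRNA names, at 6.23% of 851, and names of mm9 lincRNA exons, at 13% of 77. It was 38.0% of 790 in the ASMM10UP class, probes with a design ID in place of a lincRNA name.

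The lower share was present at each signal level, and the members' arrays scattered more widely. When all tested probes were split into quartiles of mean level, the dimmest quartile held 233 members, of which 6.44% were called, against 25.1% of all its probes. In the next quartile 9.15% of 153 members were called, against 32.1%, and in the one above it 8.97% of 78, against 38.9%. In the brightest quartile 15% of 40 members were called, against 48.1%. The median span of the region means, highest minus lowest, was 0.59 for the members and 0.64 for all probes. The median SD within regions was 0.355 for the members and 0.206 for all probes, and in the brightest quartile 0.355 and 0.143. With scan time removed as a block the SDs were 0.268 and 0.112.

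Variance between scan times was large among the members. A median member had 31.1% of its variance between regions and 38.2% between scan times, whereas a median probe of the whole array had 59.5% and 24.0%. In the brightest quartile the members had 44.6% between regions and 41.6% between scan times. Regions hold 33.3% of the degrees of freedom and scan times 22.2%. Scan time stands for the array number here, so scanning, a possible shared animal and anything else common to same-numbered arrays cannot be told apart. Scans 1 and 3 of the hippocampus and of the cerebellum, made at different times, differed by an SD of 0.0246 and 0.0237 over the 40 brightest members.

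**Figure D2:**
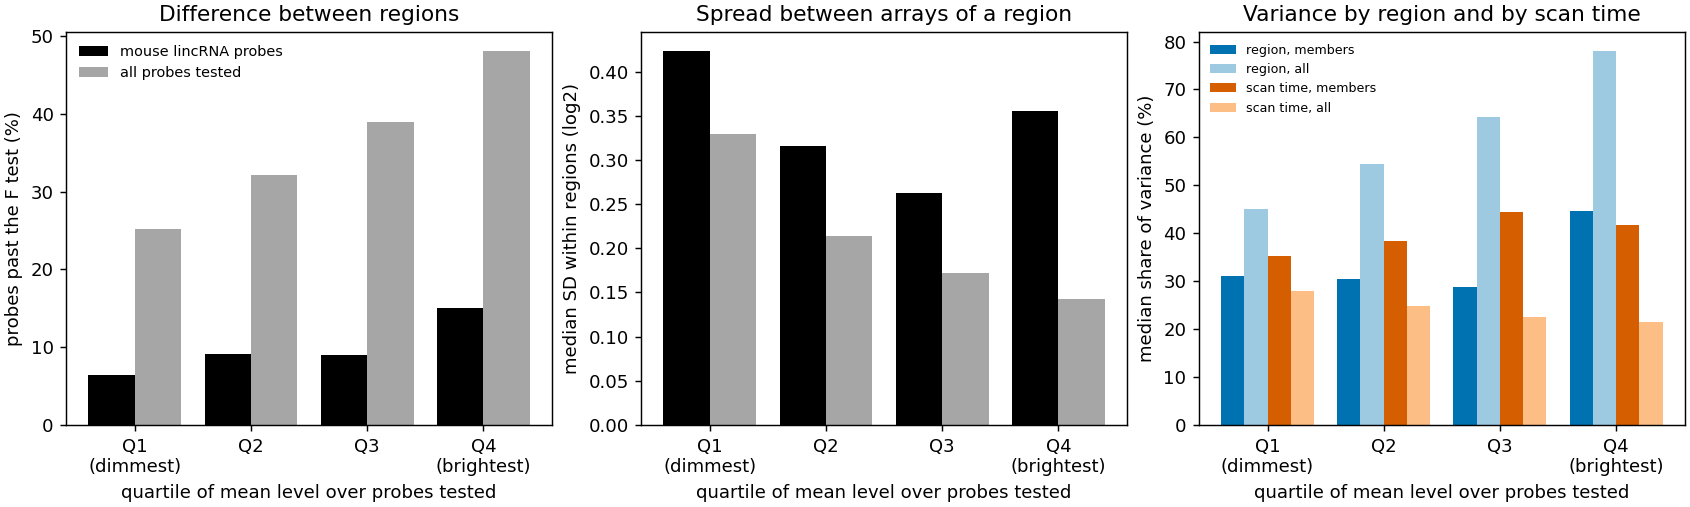
Tested probes split by mean level into quartiles, from Q1, the dimmest, to Q4, the brightest. Left, the percentage past the F test over the 4 regions for the mouse lincRNA probes (black) and all probes (grey), 6.44% against 25.1% in Q1 and 15% against 48.1% in Q4; middle, the median SD within regions (log2) in the same colours; right, the median share of each probe's variance between regions (blue) and between scan times (orange), dark for the members and pale for all probes.

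The 42 members that differed ranged widely in the size of the difference. Their region means spanned 0.41 to 3.50 on the log2 scale, with a median of 1.02. For 23 of them the span was at least 1, a 2-fold difference, and for 10 at least 2. The highest region was the olfactory bulb for 12, the cerebellum for 12, the hypothalamus for 9 and the hippocampus for 9. The lowest region was the cerebellum for 19, the hypothalamus and the hippocampus for 9 each, and the olfactory bulb for 5. No background share is given for these counts of spans and regions. Over all probes tested, a 2-fold lower call against the mean of the others was also most frequent in the cerebellum (5.12%, against 1.84% to 2.66% elsewhere). Detection was complete, on all 12 scans, for 34 of the 42. The 42 belong to 41 lincRNA numbers, since lincRNA0582 had both its probes among them.

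Against the mean of the other regions, with an adjusted p under 0.05 and a 2-fold difference, few members were called in any region. In the olfactory bulb 7 members were higher and 1 lower (background 3.7% higher and 1.84% lower of all probes tested), but 4 of the 7 (lincRNA0675-, lincRNA0773+, lincRNA0996+ and lincRNA0911+) were detected there alone, so their 2-fold calls rest on values not above background elsewhere. The hypothalamus had 2 higher and 4 lower (3.46% and 2.18%), and the hippocampus 1 higher and 5 lower (2.55% and 2.66%). The cerebellum had 5 higher and 7 lower (3.7% and 5.12%), or 12 higher and 6 lower with scan time as a block. Some of the lower calls also rest on values not above background in the region called. They were lincRNA0675- and lincRNA0996+ in the hypothalamus, lincRNA0773+ and lincRNA0100- in the hippocampus, and lincRNA0675- and lincRNA0911+ in the cerebellum. Without the block, each of the counts was at or below 1.39% of the 504 members. Without olfactory bulb array 1, 8 members were higher and 8 lower in the olfactory bulb. Under normexp, a background correction that compresses dim signals, the olfactory bulb had 2 higher and 0 lower, the hypothalamus 1 and 2, the hippocampus 0 and 1, and the cerebellum 4 and 3.

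A stricter reading asks for a 2-fold difference in 1 direction from each of the other 3 regions, each at an adjusted p under 0.05. By limma, 10 members met it (1.98%, against 7.88% of all probes). Higher than in each other region were 4 members in the olfactory bulb (background 1.58%) and 3 in the cerebellum (1.8%). Of the former, lincRNA0675-, lincRNA0773+ and lincRNA0996+ entered the test only through the olfactory bulb, so their calls rest on values not above background elsewhere and support no count. Among members detected on all 12 scans 6 met the limit. The hypothalamus had 0 such members (1.34%), with 1 at an unadjusted p under 0.05 and 0 with scan time as a block. The hippocampus had 0 (0.843%), also unadjusted and with the block. Lower than in each other region were 2 in the cerebellum (2.15%), 2 in the hypothalamus (0.405%), 1 in the hippocampus (0.525%) and 0 in the olfactory bulb (0.308%), also 0 unadjusted and with the block. With the block 12 members met it, including all 10. Under normexp 5 did, of which 4 were among the 10: lincRNA0696+, lincRNA1400-, lincRNA0538- and lincRNA0100-.

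**Figure D3:**
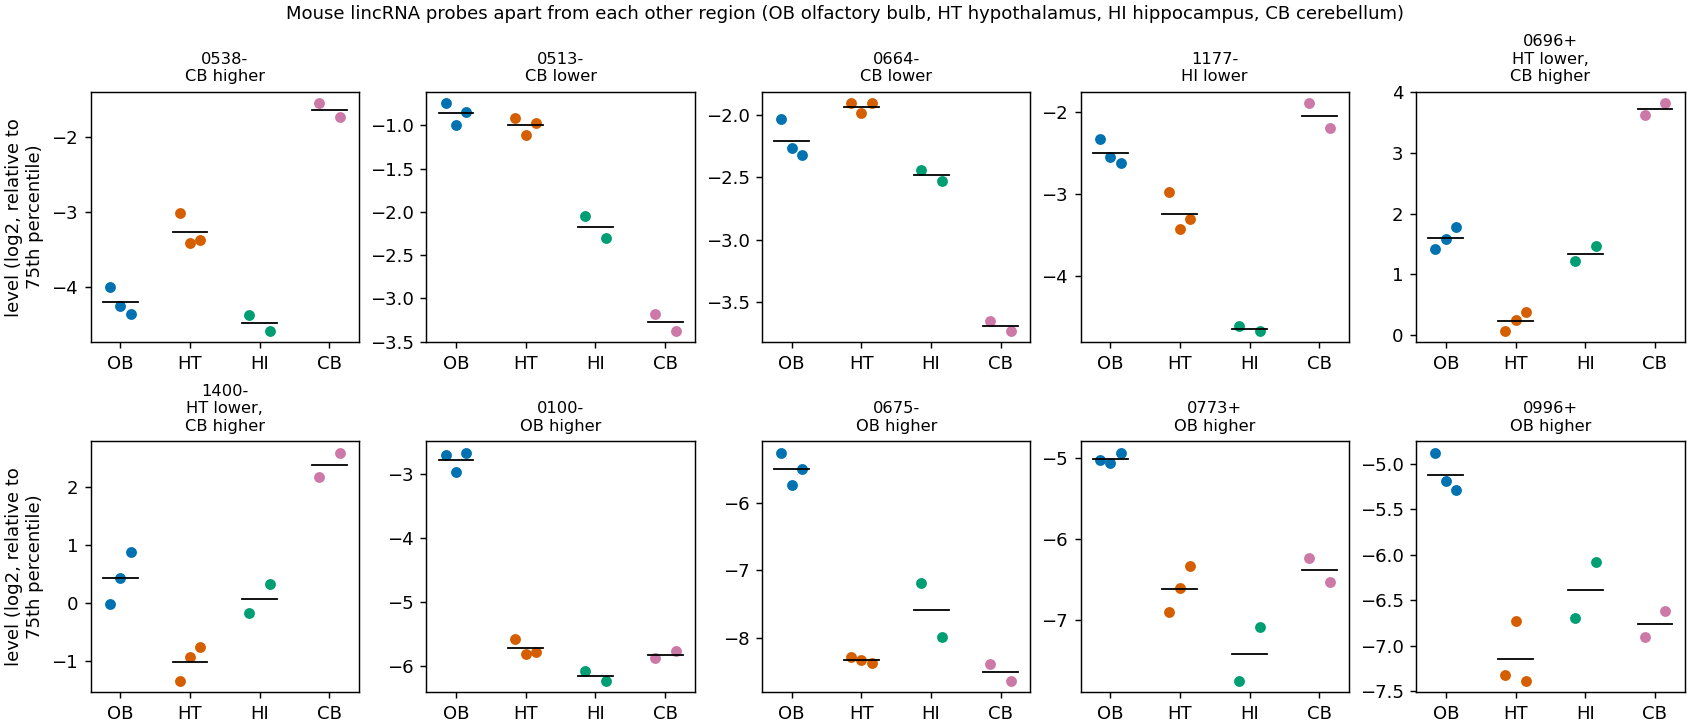
Level (log2 signal less the scan's 75th percentile) of the 10 members that differed at least 2-fold from each other region, 1 panel per member with its own axis and its region and direction in the title. Points are arrays (3 olfactory bulb, 3 hypothalamus, 2 hippocampus, 2 cerebellum) and bars are region means; the cerebellum arrays of lincRNA0696+ lie at 3.63 and 3.82, above its 8 other arrays.

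Among the members higher in the cerebellum, lincRNA0696+ was bright in all regions. Its cerebellum arrays stood at 3.63 and 3.82, those of the olfactory bulb at 1.42, 1.57 and 1.78, those of the hippocampus at 1.22 and 1.46, and those of the hypothalamus at 0.06, 0.24 and 0.37. The cerebellum arrays stood above all the others and the hypothalamus arrays below all the others, while olfactory bulb and hippocampus overlapped. The cerebellum mean (3.72 ± 0.14, SD, n = 2) was 4.38-fold above the olfactory bulb and 11.3-fold above the hypothalamus (0.23 ± 0.15, SD, n = 3; adjusted p 1.8e-06). Against the mean of the other regions the difference was 2.67 (SE 0.13, adjusted p 3.33e-06) in the cerebellum and -1.99 (SE 0.12, adjusted p 1.17e-05) in the hypothalamus. The hypothalamus value was -2.02 within the first scan time and -2.04 within the second.

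Much the same order was seen for lincRNA1400-. Cerebellum arrays read 2.17 and 2.59, olfactory bulb arrays -0.02, 0.43 and 0.88, hippocampus arrays -0.17 and 0.33, and hypothalamus arrays -1.33, -0.93 and -0.75. Again the cerebellum arrays were the highest and the hypothalamus arrays the lowest, with overlap between the other regions. The cerebellum (2.38 ± 0.30, SD, n = 2) was 3.87-fold above the olfactory bulb and 10.5-fold above the hypothalamus (-1.01 ± 0.30, SD, n = 3; adjusted p 9.09e-05). The hypothalamus lay -1.97 (SE 0.23, adjusted p 0.000516) from the mean of the others, and -2.09 with scan time as a block.

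The third member higher in the cerebellum, lincRNA0538-, was dimmer. It stood at -1.54 and -1.72 in the cerebellum, at -3.01, -3.42 and -3.37 in the hypothalamus, at -4.01, -4.26 and -4.36 in the olfactory bulb, and at -4.37 and -4.59 in the hippocampus. No region's arrays overlapped another's, although olfactory bulb and hippocampus nearly touched and were not separated by the test (difference 0.27, adjusted p 0.326). The cerebellum (-1.63 ± 0.13, SD, n = 2) was 3.10-fold above the hypothalamus and 7.21-fold above the hippocampus. Its difference from the mean of the others was 2.35 (SE 0.15, adjusted p 1.13e-05), or 1.69 under normexp.

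Lower in the cerebellum than in each other region were lincRNA0513- and lincRNA0664-. For lincRNA0513- the levels were -3.18 and -3.38 in the cerebellum, -2.05 and -2.31 in the hippocampus, -0.91, -1.11 and -0.97 in the hypothalamus, and -0.74, -0.99 and -0.84 in the olfactory bulb. The hippocampus lay between the cerebellum and the overlapping arrays of the olfactory bulb and hypothalamus. The olfactory bulb (-0.86 ± 0.13, SD, n = 3) was 5.35-fold above the cerebellum (-3.28 ± 0.14, SD, n = 2), and the hippocampus was 2.15-fold above it. Against the mean of the others the cerebellum lay at -1.93 (SE 0.11, adjusted p 8.51e-06). Without hippocampus array 1 and under normexp, where the difference was -1.60, the 2-fold limit against each region was no longer met.

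For lincRNA0664- the cerebellum arrays read -3.66 and -3.73. The hippocampus read -2.44 and -2.53, the olfactory bulb -2.03, -2.27 and -2.32, and the hypothalamus -1.91, -1.99 and -1.91. The cerebellum arrays were the lowest by more than 1 log2 unit, and the regions above them lay close together. The hypothalamus (-1.93 ± 0.05, SD, n = 3) was 3.39-fold above the cerebellum (-3.70 ± 0.05, SD, n = 2) and the hippocampus 2.32-fold. The cerebellum differed from the mean of the others by -1.49 (SE 0.09, adjusted p 1.38e-05), or by -1.13 under normexp, where it fell short of 2-fold against each region.

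The only member lower in the hippocampus than in each other region was lincRNA1177-. Its hippocampus arrays stood at -4.61 and -4.67. The hypothalamus stood at -2.98, -3.43 and -3.30, the olfactory bulb at -2.32, -2.54 and -2.61, and the cerebellum at -1.89 and -2.19. These groups did not overlap, and the order was cerebellum, olfactory bulb, hypothalamus, hippocampus, with cerebellum and olfactory bulb not separated by the test (adjusted p 0.1). The cerebellum (-2.04 ± 0.22, SD, n = 2) was 6.07-fold above the hippocampus (-4.64 ± 0.04, SD, n = 2) and the hypothalamus was 2.65-fold above it. The hippocampus differed from the mean of the others by -2.05 (SE 0.14, adjusted p 4.77e-05). Under normexp this was -1.25 and fell short of 2-fold against each region.

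The members higher in the olfactory bulb were dim elsewhere. The clearest was lincRNA0100-, at -2.70, -2.96 and -2.66 in the olfactory bulb. It stood at -5.58, -5.82 and -5.79 in the hypothalamus, at -5.88 and -5.77 in the cerebellum, and at -6.09 and -6.23 in the hippocampus, where it passed the detection mark on no scan. The olfactory bulb arrays stood far above the rest, which lay close together. The olfactory bulb (-2.78 ± 0.16, SD, n = 3) was 7.73-fold above the hypothalamus. Against the hippocampus it was at least 7.72-fold above (adjusted p 2.06e-06 for the difference as measured, not for the bound). Such a bound sets the bright mean against the lowest signal that passed the detection mark on each array of the dim region, where that exceeds the member's own. Under normexp its difference from the mean of the others, 3.13 as measured, was 1.42.

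A further 3 members passed the detection mark on all 3 olfactory bulb scans and on no scan elsewhere, so their differences are known as bounds only. The levels of lincRNA0675- were -5.26, -5.74 and -5.50 in the olfactory bulb, while the other arrays read -8.63 to -7.19. It was at least 1.42-fold higher than in the hypothalamus, 1.17-fold than in the hippocampus and 1.61-fold than in the cerebellum. For lincRNA0773+ the olfactory bulb arrays read -5.03, -5.07 and -4.94 and the others -7.75 to -6.24, and the bounds were at least 1.99-fold, 1.64-fold and 2.26-fold. The olfactory bulb arrays of all 3 members lay above their other arrays without overlap. This follows largely from their choice by detection in the olfactory bulb alone and is no separate support.

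The last of them, lincRNA0996+, read -4.88, -5.19 and -5.29 in the olfactory bulb and -7.39 to -6.08 elsewhere, with bounds of at least 1.84-fold, 1.52-fold and 2.09-fold. No p-value is given for these 3 members, since the region in which they are high let them into the test.

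Another 2 members were detected in a single region without meeting the stricter reading. One was lincRNA0911+, which passed on all olfactory bulb scans and on none elsewhere. Olfactory bulb arrays read -5.81, -5.79 and -5.90, hypothalamus arrays -6.90, -7.34 and -6.72, hippocampus arrays -6.27 and -7.23, and cerebellum arrays -7.44 and -7.74. The olfactory bulb arrays were close to each other and the highest, which follows in part from the choice by detection there alone. Their mean of -5.83 was below the lowest level that passed on any hippocampus scan. It was at least 1.12-fold higher than in the hypothalamus and 1.27-fold than in the cerebellum, no bound above 1 was reached against the hippocampus, and the direction was lost under normexp.

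The other, lincRNA0309+, passed on all cerebellum scans only. Its cerebellum arrays read -5.20 and -5.79, its olfactory bulb arrays -7.05, -8.56 and -6.36, its hypothalamus arrays -6.37, -8.33 and -6.70, and its hippocampus arrays -6.35 and -7.99. The cerebellum was highest without overlap, which follows in part from the choice by detection there alone. Array 2 was the lowest in every region. The bounds were at least 1.64-fold against the olfactory bulb, 1.42-fold against the hypothalamus and 1.17-fold against the hippocampus.

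Higher in the hypothalamus, though not 2-fold and significant against each region, was lincRNA1559+. Its hypothalamus arrays read -2.66, -2.83 and -2.71, its cerebellum arrays -4.41 and -4.68, its olfactory bulb arrays -5.30, -6.41 and -5.01, and its hippocampus arrays -4.83 and -6.97. The hypothalamus arrays stood above all others and close together, whereas the hippocampus arrays lay far apart. It passed the detection mark on 2 of 3 scans in the olfactory bulb and in the hippocampus, so the values there are in part limits. The difference from the mean of the others was 2.61 (SE 0.47, adjusted p 0.00484), or 1.502 under normexp. The test against the cerebellum gave an adjusted p of 0.0671, so the member did not count as apart. It did count under quantile normalization, under normexp and without either hippocampus array.

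Past the F test with a smaller span was lincRNA1480+, with cerebellum arrays at -1.11 and -1.46, hypothalamus arrays at -1.90, -2.11 and -1.87, olfactory bulb arrays at -1.91, -3.24 and -2.69, and hippocampus arrays at -2.92 and -3.46. The cerebellum was highest without overlap and the hippocampus overlapped the olfactory bulb. The cerebellum lay 1.30 (SE 0.31, adjusted p 0.017) above the mean of the others, a call lost without cerebellum array 1 (adjusted p 0.156) and without cerebellum array 2 (adjusted p 0.0625). Its F test also failed without either of these or hippocampus array 2.

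Among the members with the widest spans there were others in which a pair of regions stood together. In lincRNA1188+ the hypothalamus (-2.54 ± 0.09, SD, n = 3) and hippocampus (-2.69 ± 0.37, SD, n = 2) were above the olfactory bulb (-3.38 ± 0.19, SD, n = 3) and cerebellum (-3.85 ± 0.22, SD, n = 2), without overlap between the pairs. The cerebellum lay -0.98 (SE 0.16, adjusted p 0.00275) from the mean of the others. The same pairs were seen in lincRNA1179+, with hypothalamus at -2.15 ± 0.06 (SD, n = 3) and hippocampus at -2.53 ± 0.09 (SD, n = 2), against olfactory bulb at -3.10 ± 0.08 (SD, n = 3) and cerebellum at -3.17 ± 0.21 (SD, n = 2). Its hypothalamus value was 0.78 above the mean of the others (SE 0.09, adjusted p 0.000465).

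The pairs also recurred in lincRNA0188- and lincRNA0065-, on weaker grounds. In lincRNA0188- the hippocampus (-2.25 ± 0.24, SD, n = 2) lay 0.88 (SE 0.26, adjusted p 0.0472) above the mean of the others. This call was lost under quantile normalization (adjusted p 0.0665) and without each array in turn other than olfactory bulb array 1 and cerebellum array 2. In lincRNA0065-, a dim member detected on no cerebellum scan and 1 olfactory bulb scan, the hypothalamus (-5.29 ± 0.09, SD, n = 3) was at least 1.86-fold above the cerebellum. No p-value is given for this member, since the regions in which it is high let it into the test. Its F test failed with scan time as a block and without any 1 of the hypothalamus arrays or cerebellum array 2.

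The reverse arrangement, olfactory bulb and cerebellum above hypothalamus and hippocampus, was found in lincRNA0995+. The olfactory bulb mean was -1.65 ± 0.35 (SD, n = 3), the cerebellum mean -2.08 ± 0.35 (SD, n = 2), the hypothalamus mean -2.76 ± 0.35 (SD, n = 3) and the hippocampus mean -2.84 ± 0.10 (SD, n = 2). The olfactory bulb lay 0.90 (SE 0.21, adjusted p 0.0163) above the mean of the others, with adjusted p 0.0521 without olfactory bulb array 2 and 0.0682 without array 3. Each member of these sets was placed there after its values were seen.

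Differences of about 2-fold along a gradient were seen in other members. In lincRNA0725- the olfactory bulb (-3.14 ± 0.09, SD, n = 3) was 2.03-fold above the cerebellum (-4.16 ± 0.04, SD, n = 2), with hypothalamus and hippocampus between (adjusted p 0.000119). The same ends held in the bright lincRNA0735+, at 1.96 ± 0.20 (SD, n = 3) in the olfactory bulb and 0.98 ± 0.22 (SD, n = 2) in the cerebellum, a 1.97-fold difference (adjusted p 0.00498). In lincRNA0327+ the cerebellum (-2.97 ± 0.03, SD, n = 2) was the highest region, 1.61-fold above the hippocampus and 2.07-fold above the olfactory bulb (adjusted p 0.00446). Its F test failed without cerebellum array 1 or 2, and that of lincRNA0735+ without cerebellum array 1.

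The cerebellum was highest and the hypothalamus lowest in 3 more, lincRNA0342+ (2.00-fold, adjusted p 0.00283), lincRNA1199+ (1.95-fold, adjusted p 0.00266) and lincRNA1671- (2.08-fold, adjusted p 0.0119). For lincRNA1671- the cerebellum call was lost without cerebellum array 2 (adjusted p 0.228), and its F test held only without olfactory bulb array 1, cerebellum array 1 or hippocampus array 2. For lincRNA0342+ the hypothalamus call was lost under normexp (adjusted p 0.066). The remaining 17 members past the F test, outside the 25 with the widest span, had spans of 0.41 to 0.93 and adjusted p-values of 0.0018 to 0.0466. They were 7 plus and 10 minus probes.

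Some members passed a contrast with 1 region but not the F test, and are named after their values were seen. The member higher in the hippocampus, lincRNA0963+, read -2.13 and -2.54 there, with a difference of 1.04 (SE 0.31, adjusted p 0.0485) from the mean of the others, and its F test gave 0.0512. For lincRNA0597- the cerebellum arrays read -1.45 and -0.16, and its difference of -1.35 (SE 0.36, adjusted p 0.0279) was -2.18 within the first scan time and -0.36 within the second. With scan time as a block its adjusted p was 0.0647.

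The brightest members did not differ much between regions. On its 10 arrays lincRNA0161- lay between 6.74 and 7.29, and its means ran from the hypothalamus (7.16 ± 0.11, SD, n = 3) over the olfactory bulb (7.02 ± 0.16, SD, n = 3) and the hippocampus (6.95 ± 0.04, SD, n = 2) to the cerebellum (6.76 ± 0.02, SD, n = 2). The F test gave an adjusted p of 0.124, or 0.00644 with scan time as a block. The cerebellum lay -0.29 from the mean of the others, and 0.02 under quantile normalization, where the sign turned.

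In lincRNA0344- the hippocampus (6.36 ± 0.19, SD, n = 2) and hypothalamus (6.26 ± 0.14, SD, n = 3) were above the cerebellum (5.81 ± 0.16, SD, n = 2) and olfactory bulb (5.75 ± 0.18, SD, n = 3), with an adjusted p of 0.0263 in the F test and a span of 0.61. That call held without hypothalamus array 1, hippocampus array 1, olfactory bulb array 2 or cerebellum array 2, and was lost without any of the other arrays, under quantile normalization and in the value table. The third, lincRNA1606-, varied by scan time: array 3 read 6.70 in the olfactory bulb and 6.45 in the hypothalamus, and array 2 read 5.40 and 5.20. Its region means spanned 0.46 (adjusted p 0.814).

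The widest spans that did not pass the test came from values that were in part below the detection mark. For lincRNA0767- the array 2 values were -8.56 in the olfactory bulb, -8.06 in the hypothalamus and -7.99 in the hippocampus, all below the lowest level that passed on those scans, but -2.82 in the cerebellum. On array 1 the same regions read -4.95, -5.53, -5.48 and -4.97, close together. The F test gave an adjusted p of 0.435.

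Much the same was seen in lincRNA0999+, whose array 2 values were -7.07, -6.82 and -7.99 in the olfactory bulb, hypothalamus and hippocampus, each below the lowest level that passed there, and -3.40 in the cerebellum (adjusted p 0.437). In lincRNA0364+ the olfactory bulb arrays read -5.24, -8.52 and -6.99, and only 1 of the 3 scans passed the detection mark (F test adjusted p 0.13). Without olfactory bulb array 1 the test of the olfactory bulb against the others passed (adjusted p 0.00779), on 2 olfactory bulb arrays that were not above background.

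Detection was also compared between probes of opposite sign on the same number. Of 317 numbers with both signs, 117 had both probes detected on all 12 scans. In 154 only 1 of the probes was, the plus probe in 75 and the minus probe in 79, and in 49 of these the partner passed on no scan. Neither probe passed on any scan for 2 numbers. No background share is given for these counts. As 60.6% of all plus and 61.2% of all minus probes passed on all 12 scans, unrelated probes would also often differ. The counts are therefore not read as a trait of the pairs. Across the 10 arrays the plus and minus levels of the 188 pairs with both probes tested had a median r of -0.02 (quartiles -0.28 and 0.30), where the points share scan and normalization. The 325 tested pairs of human lincRNA names had a median of 0.0043 (quartiles -0.28 and 0.35).

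In 1 pair, lincRNA0582, both probes passed the F test, in 14 the plus probe alone, in 14 the minus probe alone, and in 159 neither. For the plus probe of lincRNA0582 the F test failed without olfactory bulb array 2 or 3, hypothalamus array 3 or cerebellum array 2. For the minus probe it held only without olfactory bulb array 2 or 3 or hypothalamus array 3, and failed after correction for position on the array. No omission of an array thus kept both calls. The lincRNA0582 probes had different orders. The plus probe was highest in the olfactory bulb (-4.57 ± 0.17, SD, n = 3) and lowest in the cerebellum (-6.10 ± 0.34, SD, n = 2), where it passed the detection mark on 2 of 3 scans. The minus probe was highest in the cerebellum (-1.87 ± 0.08, SD, n = 2) and lowest in the hippocampus (-2.68 ± 0.18, SD, n = 2). Their cerebellum differences from the mean of the others were -1.03 (adjusted p 0.0257) and 0.57 (adjusted p 0.0404). The first was lost without cerebellum array 1 or 2, hippocampus array 2 or hypothalamus array 3. The second was lost after correction for position on the array and without each array in turn other than hippocampus array 1 and array 3 of the olfactory bulb and of the hypothalamus. The difference between the plus and minus probe did not pass the pair test for this number.

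To ask whether a plus and a minus probe change unequally, the difference between them within each array was tested over the regions. Of the 188 mouse pairs 4 passed (2.13%, against a background of 2.14% of 513 mouse and human pairs), and the same 4 passed with scan time as a block. At an unadjusted p under 0.05 there were 17. With both probes detected on all 12 scans 2 passed, lincRNA0513 and lincRNA1400. In each of the 4 the minus probe passed the F test and the plus probe did not.

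**Figure D4:**
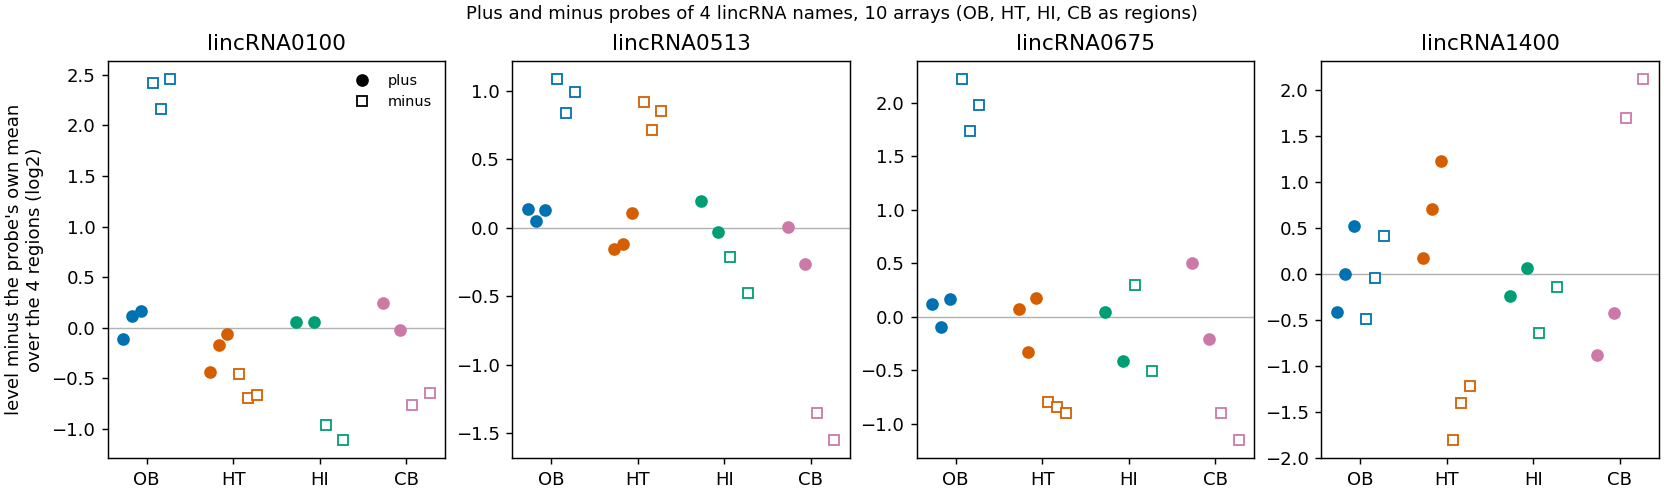
Plus (filled circles) and minus (open squares) probes of the 4 numbers whose within-array difference varied between regions, on each of 10 arrays, as level minus the probe's own mean over the 4 regions (log2). The minus probe of lincRNA0100 stands above 2 in the olfactory bulb while its plus probe stays near 0, and the probes of lincRNA1400 go opposite ways in the hypothalamus and the cerebellum.

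For lincRNA0100 the plus probe read 0.04, 0.27 and 0.32 on olfactory bulb arrays, -0.28, -0.02 and 0.09 on hypothalamus arrays, 0.21 and 0.21 on hippocampus arrays, and 0.40 and 0.13 on cerebellum arrays. These regions overlapped (F test adjusted p 0.268), while the minus probe was higher in the olfactory bulb as given above. The plus minus minus difference was 2.99 in the olfactory bulb, 5.66 in the hypothalamus and 6.09 in the cerebellum (pair test adjusted p 0.00256), and in the hippocampus the minus probe was not above background, so its value there is a limit. In lincRNA0675 the plus probe lay between -2.58 and -1.66 on all arrays (F test adjusted p 0.762), while its minus probe was detected in the olfactory bulb alone. Its pair call therefore rests on values not above background in the other regions, and it was lost under normexp.

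For lincRNA0513 the plus probe, among the bright members, lay between 4.34 and 4.80 on all arrays (F test adjusted p 0.459). Its minus probe was lower in the cerebellum, and the difference varied by 2.20 between cerebellum and hypothalamus (adjusted p 0.00512). This call was lost without cerebellum array 1.

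In lincRNA1400, detected on all scans with both probes, the highest and lowest regions were exchanged between the probes. The plus probe read -3.70, -3.17 and -2.64 in the hypothalamus, -4.29, -3.88 and -3.36 in the olfactory bulb, -4.11 and -3.81 in the hippocampus, and -4.75 and -4.29 in the cerebellum. The hypothalamus arrays overlapped those of the olfactory bulb, and the F test did not pass (adjusted p 0.0834, or 0.000256 with scan time as a block). The plus probe's mean was highest in the hypothalamus and lowest in the cerebellum, and the minus probe's the other way round. The plus minus minus difference varied by 4.74 between hypothalamus and cerebellum (adjusted p 0.000452), and its SD within a region was 0.0258 to 0.248, against 0.21 to 0.53 for the plus probe alone.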

How the data were processed

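Total RNA of 4 regions was measured on 12 one-colour arrays. The authors extracted spots with Agilent Feature Extraction 11.0.1.1, per the submitters' processing notes; the deposited intensity per spot is a processed signal, background-subtracted per the file headers. The authors also deposited a value table on the log2 scale, with column medians of 8.48 to 8.49, by steps not given in the sources used here. No probe was saturated, and the number of arrays limits the precision.

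Members and lists were chosen with earlier results of these data known. Levels were log2 processed signal minus the scan's 75th percentile, without outlier spots, control spots and 15 probes named as negative. limma 3.58.1 in R 4.3.3 fitted 1 mean per region to 10 arrays (6 residual degrees of freedom), with Benjamini-Hochberg adjustment over all 56573 probes well above background on every scan of at least 1 region. Pairs were adjusted over 513 pairs. The code was tested on simulated data. Named members were those apart from each other region, the 25 of widest span past the F test, those detected in 1 region alone, those of pairs past a test, and the 3 brightest and 3 widest not called. Alternatives were quantile normalization, the value table, normexp (offset 50), other detection filters, the replicate block, 12 scans, eBayes with trend, each array left out, and a correction over 128 tiles.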

Additional observations from a re-analysis of the deposited data

Results flagged for a closer look

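In 4 of 188 numbers (2.13%, against 2.14% of all 513 pairs tested) the plus and minus probes differed unequally between regions, by a limma test of the within-array difference. The share is that of the background. The widest change of that difference between regions was 4.74 on the log2 scale for lincRNA1400 (adjusted p 0.000452) and 2.20 for lincRNA0513 (adjusted p 0.00512), lost without cerebellum array 1. It was 3.38 for lincRNA0100, whose minus probe was not above background in the hippocampus, and 3.10 for lincRNA0675, whose minus probe was above background in the olfactory bulb alone, so both sizes rest on values that are limits.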

How the results depend on the processing

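The 42 members past the F test (36.1% of all probes) became 67 under normexp (all probes 38.7%), 103 with the replicate block (54.0%) and 85 with all 12 scans as samples (47.1%), and 32 to 49 when each array was left out; the other settings gave 38 to 57. The setting with 12 scans counts the near-identical scans of the hippocampus and of the cerebellum as separate arrays. Its counts of members and pairs therefore rest on scans that are not independent. The block is the array number, called scan time above. Array 1 of the hippocampus and of the cerebellum also averages in a scan made at a further time. Deviations of same-numbered arrays correlated at r 0.0932 to 0.747 over 13 pairs, and those of other pairs at -0.733 to 0.382. Deviations are taken from the region mean, so the 2 arrays of the hippocampus, and those of the cerebellum, mirror each other. Values therefore repeat among the pairs, and negative r of other pairs follow in part from the centring. Between olfactory bulb and hypothalamus, with 3 arrays each, same-numbered arrays had r of 0.524, 0.747 and 0.505. The labels state no pairing, so the main fit has none and the block is given as an alternative. Called members against the mean of the others numbered 2 under normexp and 2 with complete detection in the olfactory bulb (8 as reported; 7 to 16 with an array left out, 16 without olfactory bulb replicate 1), 3 and 3 in the hypothalamus (6; 5 to 8), 1 under normexp in the hippocampus (6; 4 to 8) and 7 in the cerebellum (12; 9 to 15). Members apart from each other region numbered 5 under normexp and 6 with complete detection (10; 10 to 15). Pairs past their test numbered 2 with complete detection, 10 with 12 scans and 7 with the tile correction (4; 3 to 4). Detection on at least 1 scan was 82.6%, 80.6%, 78.4% and 82.0%, in the order olfactory bulb, hypothalamus, hippocampus, cerebellum. Direction reversed for lincRNA0161- under quantile normalization (0.022) and the value table (0.023), for lincRNA0911+ under normexp (-0.0026) and for lincRNA1606- without olfactory bulb replicate 3 (-0.017; with another array left out up to 0.629). Apart from these, named members kept their direction in the settings run; their call was lost 6 times and gained 14 times outside the omissions of an array, and lost 36 times and gained 2 times in them. Where a setting drops probes or samples, fewer were tested; otherwise the cause was not tested. For members near background, signal over background limits the size of a difference.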
